A study of Rattus norvegicus with 81 samples.

Results

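Wnt ligands, their receptors and the secreted proteins that modulate them were followed in the rat mammary gland. The genes were taken by symbol, with no measured value in the rule, though the set was chosen with earlier results of these data known. They comprised every gene with a single symbol of the Wnt, Fzd, Sfrp, Dkk and Rspo families, together with Lgr4 to Lgr6 and the co-receptors Lrp5 and Lrp6, each read from its transcript cluster with the highest mean. There were 45 such genes among 18166 named genes on the array: 19 Wnt ligands, 9 Frizzled receptors, 2 LRP co-receptors, 4 R-spondins, 3 LGR receptors, 4 secreted Frizzled-related proteins and 4 Dickkopf proteins. The table of the diethyl phthalate study held only 6762 named genes and 25 of the 45.

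Female Sprague-Dawley rats received 1 of 3 agents in olive oil, namely the plasticiser diethyl phthalate (DEP), the preservative methyl paraben (MPB) and the antimicrobial triclosan (TCS), or olive oil without an agent (OIL), and RNA of the 5th caudal mammary glands was read on 81 Affymetrix arrays in 18 groups. Each group held 5 arrays, except 4 for TCS PND1-20 and 3 each for TCS PND21-41, TCS PND42-62 and both chronic groups. Exposure ran over gestation (GD1-20, through the gavaged pregnant dam), from birth to weaning (PND1-20, through the milk of dosed dams), from weaning on (PND21-41, milk and then gavage) or later (PND42-62, gavage). A chronic window (PND1-145, TCS and OIL only) took in mating, pregnancy and lactation. PND is the day after birth and GD the day of gestation. Glands were taken at PND 21 after both early windows, at PND 42 and 63 after the next pair, and at PND 146, after lactation, in the chronic groups. All controls received olive oil, none was untreated, and doses are not given in the sources used here. All arrays are whole-gland RNA, so more cells of a type and more RNA per cell cannot be told apart. The labels give no litter for any array and do not say how many litters the older animals came from, so p-values measure the spread between these arrays. In both early windows the dam was dosed, and any littermates there would share her dosing.

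Wnt proteins bind a Frizzled receptor together with LRP5 or LRP6 and thereby stabilise beta-catenin, which acts with TCF factors on target genes, or they signal through Frizzled, ROR and RYK receptors to cell polarity and movement. R-spondins bind LGR4, LGR5 or LGR6 and keep Frizzled receptors on the cell surface. Secreted Frizzled-related proteins bind Wnts outside the cell, and most Dickkopf proteins block LRP5 and LRP6. In the mouse mammary gland, Wnt signals serve the embryonic bud, ductal branching and stem cells, and WNT4 and R-spondin-1 relay the progesterone signal to neighbouring epithelial cells.

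Values are the deposited log2 signals, and a difference is the first group minus the second with its standard error (SE) from limma's linear model, with the batch number of the labels (1 or 2) as a term in the short windows. A gene was called where its Benjamini-Hochberg adjusted p over all named genes was below 0.05. As a rough floor, the 95th percentile of the means of 67 olfactory receptor genes lay at 7.08. Above it lay 29 of the 45 genes: 8 of 19 ligands, 8 of 9 Frizzled receptors, both LRP co-receptors, 2 of 4 R-spondins, all 3 LGR receptors, all 4 secreted Frizzled-related proteins and 2 of 4 Dickkopf proteins. The 16 below it were Wnt1, Wnt3, Wnt3a, Wnt7a, Wnt7b, Wnt8a, Wnt8b, Wnt9b, Wnt10a, Wnt10b, Wnt16, Fzd9, Rspo2, Rspo4, Dkk1 and Dkk4. Arrays of one group spread most for Sfrp4, with an SD of 0.80, then Rspo3 (0.69), Dkk2 (0.56) and Lgr6 (0.45). They spread least for Dkk1 (0.12) and Dkk4 (0.13).

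Some arrays carried muscle. In 7 of the 55 arrays of the MPB, TCS and OIL table and 7 of the 40 of the DEP and OIL table, the skeletal muscle score (the mean log2 deviation of 10 measured muscle genes from their mean over all arrays) was above 1. It was also above 1 in 1 of the 6 chronic arrays. The lowest correlation between any pair of arrays of the MPB, TCS and OIL table, over all genes, was 0.9.

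Promoters are given first, and those printed belong to genes that rose with age in OIL animals. A RefSeq promoter of 300 bases (build GRCr8, 250 before to 50 from the start site of its entry, taken at base 251) was found for 30 of the 45 genes, and for 9 of the 13 that rose and 2 of the 3 that fell with age in OIL animals. For some genes, Wnt4, Rspo1, Fzd8, Wnt5a and Wnt11 among them, that site is not the listed start of the gene. Both strands were searched for ATCAAAG (the core of a TCF/LEF site), AGGTCA (an estrogen response half-site), AGAACA (a glucocorticoid and progesterone receptor half-site) and CACGTG (an E-box). ATCAAAG was in 0 of the 30 promoters and in 3.63% of 33469 rat promoters of the same length. AGGTCA and AGAACA were each in 2 of 30 (6.67%), against 16.2% and 20.7% of all promoters, and CACGTG was in 2 of 30, against 6.42%. The median GC content of the 30 was 65.5%, with a range from 49% to 85.3%, against 51.7% over all promoters. A match describes the letters only, and its absence from this window says nothing of the factor. The 4 promoters of risen genes with any of these letters follow, 5′ to 3′ along the gene, with the matched letters in capitals. Capitals mark AGAACA in Rspo3 (base 280), the reverse complement of AGGTCA in Wnt2 (from base 291), and CACGTG in Wnt2b (from base 116) and Wnt9a (from base 76).
Rspo3, chr1:30112279-30112578, plus strand: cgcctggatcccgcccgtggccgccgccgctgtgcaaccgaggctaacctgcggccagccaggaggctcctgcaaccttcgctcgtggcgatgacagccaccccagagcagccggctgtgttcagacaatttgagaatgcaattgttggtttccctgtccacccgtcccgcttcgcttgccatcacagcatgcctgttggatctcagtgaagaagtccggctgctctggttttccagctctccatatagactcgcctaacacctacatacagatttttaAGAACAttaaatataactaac
Wnt2, chr4:47340235-47340534, minus strand: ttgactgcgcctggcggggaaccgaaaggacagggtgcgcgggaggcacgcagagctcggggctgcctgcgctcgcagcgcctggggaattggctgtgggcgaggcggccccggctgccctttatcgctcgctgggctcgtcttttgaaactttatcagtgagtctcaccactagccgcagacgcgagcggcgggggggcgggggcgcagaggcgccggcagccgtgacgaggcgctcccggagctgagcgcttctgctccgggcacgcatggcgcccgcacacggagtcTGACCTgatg
Wnt2b, chr2:195156896-195157195, minus strand: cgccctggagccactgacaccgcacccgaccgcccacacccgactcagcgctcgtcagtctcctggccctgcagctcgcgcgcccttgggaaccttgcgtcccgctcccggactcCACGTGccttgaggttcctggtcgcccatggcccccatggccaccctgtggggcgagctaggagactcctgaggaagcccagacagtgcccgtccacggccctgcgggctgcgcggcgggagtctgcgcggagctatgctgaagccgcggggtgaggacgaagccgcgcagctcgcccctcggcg
Wnt9a, chr10:44593441-44593740, plus strand: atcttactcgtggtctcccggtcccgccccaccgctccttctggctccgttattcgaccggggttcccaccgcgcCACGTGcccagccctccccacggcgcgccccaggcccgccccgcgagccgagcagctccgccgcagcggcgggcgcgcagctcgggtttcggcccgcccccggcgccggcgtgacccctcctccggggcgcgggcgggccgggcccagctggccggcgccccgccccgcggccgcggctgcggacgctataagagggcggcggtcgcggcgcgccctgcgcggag

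The largest body of change was with age. Between PND 21 and PND 42, when the rat passes through puberty, 13 of the 45 genes rose and 3 fell in glands of OIL animals. Lgr6, Rspo3, Fzd1 and Wnt4 were among those that rose, and Dkk2, Fzd4 and Sfrp5 were those that fell. Over all genes 2174 (12%) rose and 1899 (10.5%) fell in the same fit of 20 OIL arrays. The median difference over the 45 was 0.09 against 0.01 over all genes, and 36 of the 45 were positive against 52.1% of all genes. The PND 21 value is the mean of both early OIL groups (n = 10), and the older group was also gavaged itself, so age and the route of the oil differ together.

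Among the ligands 5 of 19 rose and none fell. Wnt4, a progesterone target in the mouse gland, lay at 7.59, 7.41, 7.68, 7.81 and 7.45 in the OIL GD1-20 arrays, at 8.14, 8.05, 8.49, 7.58 and 7.66 in OIL PND1-20 and at 8.63, 8.98, 8.59, 8.18 and 8.30 in OIL PND21-41. The PND 42 arrays were all above the early gestational group, while 1 PND1-20 array reached into their range. Wnt4 rose by 0.75 ± 0.11 (SE), or 1.68-fold, from 7.78 ± 0.34 (SD, n = 10) to 8.54 ± 0.31 (n = 5), with an adjusted p of 0.000104. Wnt2, a ligand made by mouse mammary stroma, ran from 7.34 through a median of 7.97 to 8.35 at PND 21 and stood at 8.45, 9.46, 8.62, 8.82 and 8.39 at PND 42. These groups did not overlap, and the rise was 0.80 ± 0.19, or 1.74-fold (adjusted p = 0.00432). Groups did not overlap for 638 of all genes (3.51%) and for 3 of the 45, the others being Sfrp1 and Sfrp2.

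Wnt2b, the close relative of Wnt2, rose by 0.49 ± 0.082 (adjusted p = 0.000284), from 7.15 ± 0.28 to 7.64 ± 0.41. At PND 42 its 5 arrays stood at 7.97, 7.80, 8.03, 7.17 and 7.24. The last 2, both of the second batch, fell inside the PND 21 range of 6.70 to 7.47. The remaining risen ligands, Wnt7b (0.48 ± 0.12) and Wnt9a (0.32 ± 0.094), and the Dickkopf gene Dkk3 fall outside the 10 largest rises and are named here after their values were seen. Wnt7b lies below the olfactory receptor floor, and the call of Wnt9a was lost without OIL PND21-41 replicate 3 or 4 (adjusted p = 0.053 and 0.0638). Of the uncalled ligands, Wnt5a, which signals mainly without beta-catenin and restrains branching in the mouse, came nearest, with a difference of -0.30 ± 0.11 (adjusted p = 0.0558). In the DEP and OIL table, with fewer genes, Wnt5a was called in the same OIL animals, at -0.30 ± 0.12 (adjusted p = 0.0472). Wnt6 (0.00 ± 0.069), Wnt1 (0.02) and Wnt3a (0.02) had differences near 0.

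Frizzled genes went both ways. Fzd1 at PND 42 stood at 8.32, 8.72, 9.12, 7.98 and 8.50 against 7.16 to 8.33 (median 7.71) at PND 21, so that 2 of the 5 arrays lay within the younger range. Its rise was 0.84 ± 0.13, or 1.79-fold (adjusted p = 0.000142). Fzd7 rose by 0.70 ± 0.13, or 1.63-fold (adjusted p = 0.000521), with 9.26, 9.25, 9.17, 8.95 and 8.83 at PND 42 against a PND 21 range of 7.87 to 9.07. Fzd2 rose by 0.51 ± 0.11, or 1.43-fold (adjusted p = 0.00198), with 9.14, 9.69, 9.17, 8.99 and 9.26 against 8.33 to 9.10. Both are receptors of the same subfamily as Fzd1, and both overlapped the younger range by 1 or 2 arrays. Fzd4, also the receptor of the vascular ligand norrin, fell by 0.65 ± 0.12 (adjusted p = 0.00046), from a PND 21 range of 9.97 to 10.95 to 9.78, 9.92, 10.10, 9.38 and 9.59. The co-receptors did not pass: Lrp6 differed by 0.22 ± 0.087 (adjusted p = 0.0805). In the DEP and OIL table, with fewer genes, Lrp6 was called in the same OIL animals, at 0.23 ± 0.094 (adjusted p = 0.0493).

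The R-spondin axis gave the biggest positive differences. Lgr6, an R-spondin receptor that marks progenitor cells in several mouse epithelia, stood at 7.04, 6.87, 7.02, 6.83 and 6.86 in OIL GD1-20 and at 7.50, 7.48, 7.90, 6.61 and 7.44 in OIL PND1-20. At PND 42 it stood at 8.65, 9.20, 8.58, 7.57 and 7.80, above the PND 21 arrays in all but 2 cases. The rise of 1.21 ± 0.16, or 2.31-fold, had the smallest adjusted p of the 45 (2.92e-05); it was 1.51 in batch 1 alone and 0.75 in batch 2 alone. Rspo3, a secreted partner of the LGR receptors, lay between 6.57 and 7.63 at PND 21 (median 7.32). At PND 42 it stood at 8.79, 7.20, 9.12, 8.23 and 9.18, with 1 array inside the younger range. Its rise of 1.24 ± 0.39, or 2.36-fold, passed with an adjusted p of 0.0276. It was 1.15, 1.06 and 1.07, with adjusted p of 0.0707, 0.0901 and 0.0881, without OIL PND21-41 replicate 1, 3 or 5. Rspo4 missed the threshold with 0.25 ± 0.089 (adjusted p = 0.0543), and Lgr4 and Lgr5 were not called.

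Secreted inhibitors split. Sfrp1 rose from a PND 21 range of 8.47 to 9.02 (median 8.84) to 9.56, 9.17, 9.94, 9.65 and 9.47, without overlap. Its difference was 0.78 ± 0.12, or 1.72-fold (adjusted p = 0.000114). Sfrp2 rose by 0.81 ± 0.19, or 1.75-fold (adjusted p = 0.00525), from 9.93 to 10.82 at PND 21 to 10.84, 12.17, 11.16, 10.89 and 11.02. One array, at 12.17, stood apart from the rest of its group. Sfrp5, known as an adipose inhibitor of Wnt5a in the mouse, fell by 0.51 ± 0.13, from 8.19 ± 0.24 (n = 10) to 7.68 ± 0.17 (n = 5), with an adjusted p of 0.00615. Sfrp4 averaged 9.53 at both ages, with a difference of 0.00 ± 0.29.

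Dkk2, an LRP5 and LRP6 antagonist, had the biggest fall. It stood at 9.06, 9.09, 9.19, 8.90 and 8.86 in OIL GD1-20, at 8.88, 8.55, 7.29, 9.12 and 9.06 in OIL PND1-20, and at 7.35, 6.99, 7.70, 7.38 and 8.03 in OIL PND21-41. A single PND1-20 array, the third, lay at the level of the older glands, and the other 9 lay above them all. That same array was the lowest of its group for Rspo3 (6.57) and the highest for Wnt4 (8.49) and Lgr6 (7.90), and its luminal marker score of 0.55 was the highest of the PND 21 OIL arrays. The difference was -1.31 ± 0.21, or 2.48-fold lower (adjusted p = 0.00019). Dkk3, a divergent Dickkopf, rose by 0.38 ± 0.12 (adjusted p = 0.0324), a call lost in 8 of the fits that left out 1 array, at most to 0.26 (adjusted p = 0.132) without OIL PND21-41 replicate 1.

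**Figure D1:**
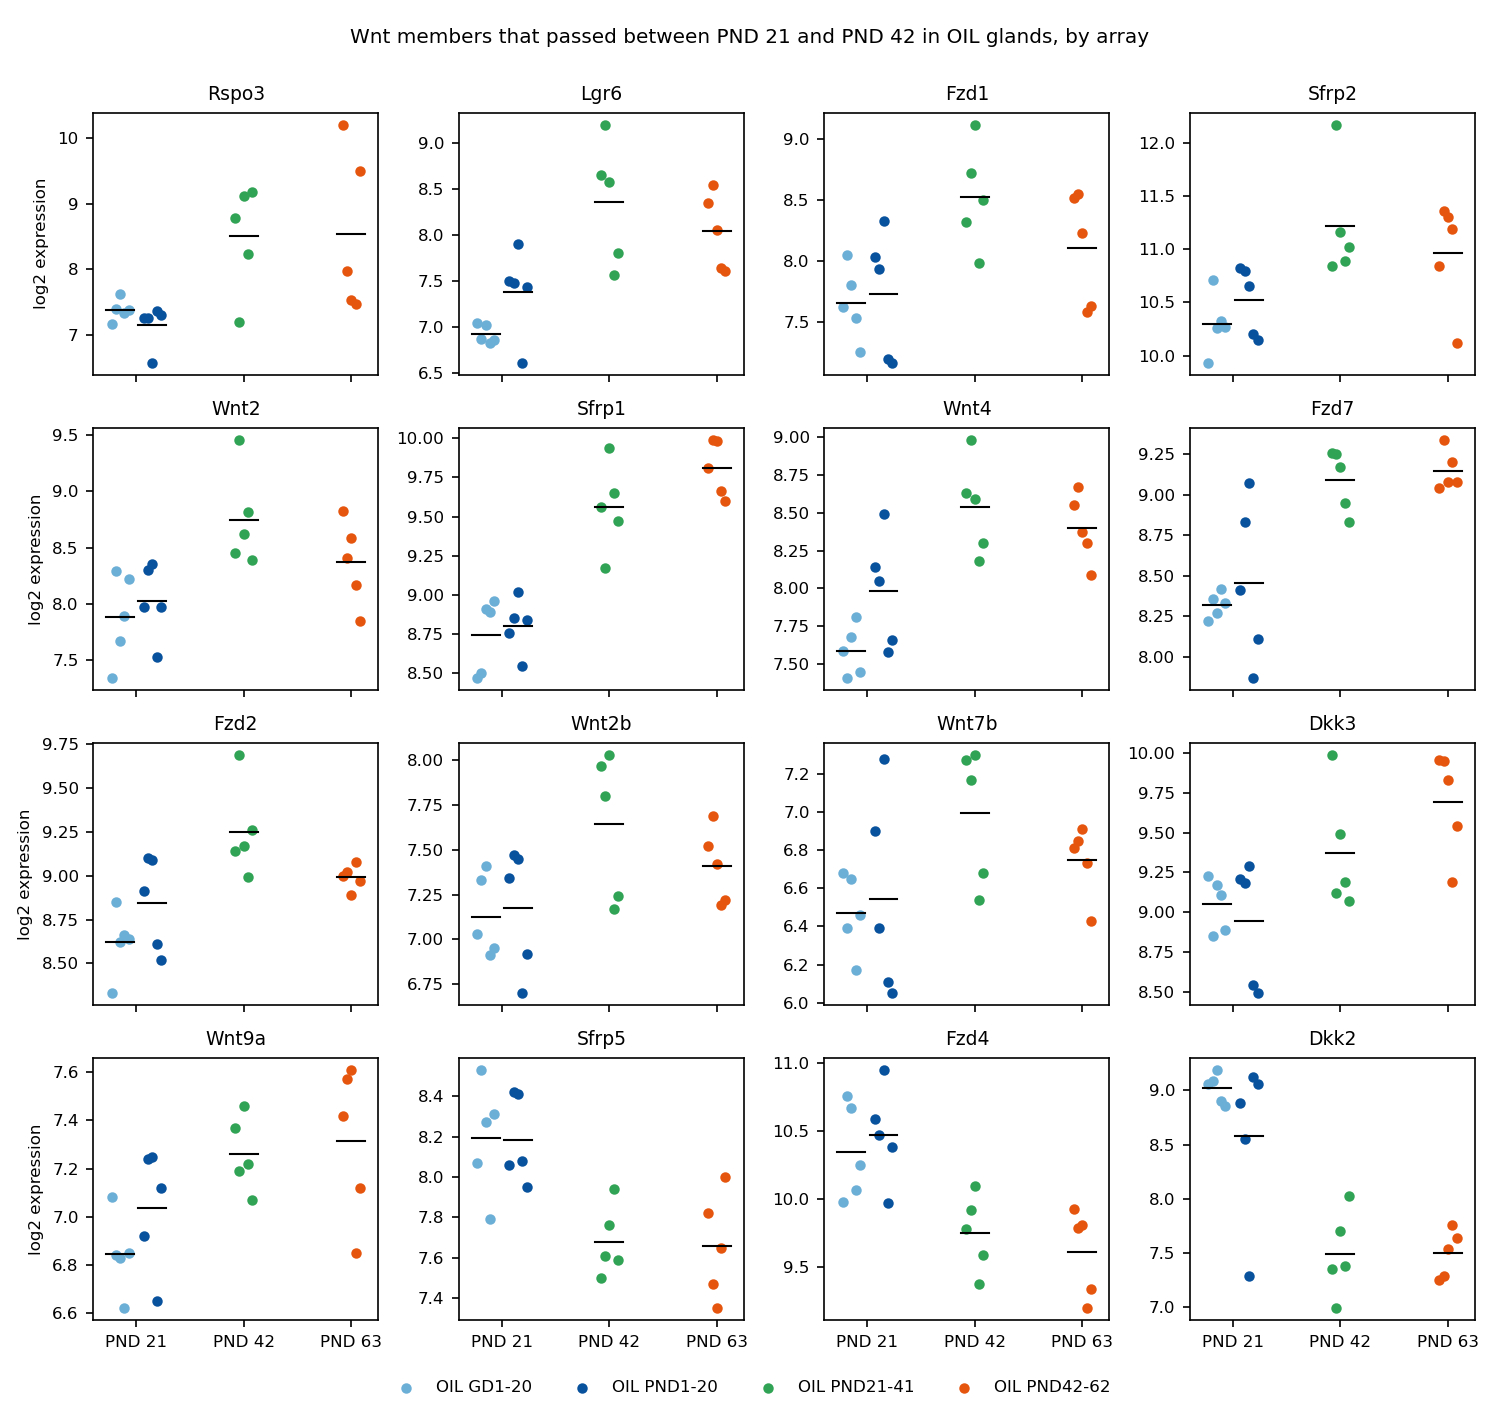
Log2 signal of the 16 called genes in each OIL array of the 4 short windows, against age at sampling in days; points are arrays, coloured by group, and bars are group means. Dkk2, Fzd4 and Sfrp5 are lower at PND 42 than at PND 21 and the other 13 are higher, with 1 PND1-20 array of Dkk2 at the level of the older glands.

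Cell type markers also changed over the same interval. Of 19 luminal epithelial markers 18 rose (median 1.48), as did 4 of 6 basal markers (1.11) and 5 of 12 fibroblast markers (0.23). All 11 white adipocyte markers fell (median -0.67), together with 7 of 8 endothelial markers (-0.37) and 10 of 10 B cell and lymph node markers (-1.63). Luminal scores ran from -1.92 to -0.20 in OIL GD1-20, from -1.11 to 0.55 in OIL PND1-20 and from 0.67 to 1.20 in OIL PND21-41. Adipocyte scores ran from 0.03 to 0.65, from 0.40 to 0.76 and from -0.44 to -0.02. Neither score overlapped between the ages. With both scores as covariates 0 of the 45 were called, and 58 genes against 4073. At an unadjusted p under 0.05 there were then 8 members (the share of all genes is not given here). Since the scores did not overlap, this fit cannot separate them from age. Differences in it were larger for Rspo3 (2.74), Wnt2 (1.39), Fzd1 (1.35), Sfrp2 (0.96), Fzd2 (0.73) and Wnt2b (0.65). Sfrp1 (0.78) and Wnt9a (0.32) were unchanged. Lgr6 (1.13), Dkk2 (-0.84), Fzd7 (0.43), Wnt4 (0.36), Wnt7b (0.15) and Sfrp5 (-0.1) had smaller ones. Fzd4 (0.19) and Dkk3 (-0.16) turned sign. With the scores of muscle and of B cells in the model 9 members were called, 8 of them among the 16, and without the 3 muscle-rich OIL arrays 13 were called, all 13 among the 16. What part these cell types had in the result was not tested otherwise.

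Other genes of the pathway were counted in the same fit, where 12% of all genes rose and 10.5% fell. Of 22 measured genes for Wnt secretion and other surface proteins, 13 rose and 0 fell (median 0.47), led by Cthrc1 (1.37 ± 0.18), a secreted Wnt cofactor, the planar polarity cadherin Celsr2 (1.03 ± 0.15) and the Dickkopf receptor Kremen1 (0.65 ± 0.098). Of 15 cytoplasmic relay genes 3 rose, 0 fell and 12 were not called (median 0.08). The 3 were Btrc (0.26 ± 0.060), Ctnnb1, which encodes beta-catenin (0.16 ± 0.052), and Dvl1 (0.20 ± 0.070). Among 14 TCF factors and targets of beta-catenin 4 rose and 2 fell, with a median of -0.02. Tnfrsf19 (1.27 ± 0.19), Nkd2 (0.58 ± 0.079) and Tcf7l2 (0.58 ± 0.11) had the smallest p. The 2 that fell, named after their values were seen, were Tcf7 (-2.05 ± 0.39) and Lef1 (-2.42 ± 0.53), which are also factors of T lymphocytes, and the B cell and lymph node score fell with them. Axin2, the usual readout of beta-catenin, differed by -0.19 ± 0.11 (adjusted p = 0.282). Of 7 measured hormone relay genes 3 rose and 1 fell. Prlr, the prolactin receptor, rose by 2.11 ± 0.20 and Pgr, the progesterone receptor, by 3.83 ± 0.47, while Tnfsf11, the progesterone-driven cytokine RANKL, differed by -0.98 ± 0.23.

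Animals given a chemical were fitted by themselves, so that these are other animals than the OIL ones. The 16 genes called in OIL had the same sign in all 16 in MPB, TCS and DEP animals, with 6 of 16 (37.5%), 11 (68.8%) and 12 (75%) also called there. Of all genes called in OIL, 92.8%, 98.6% and 98.8% of those measured had the same sign and 27.5%, 47.2% and 61.7% were also called. The DEP table holds 6762 of the 18166 named genes but 3248 of the 4073 called in OIL, and all 16 members. No label states how its genes were chosen, so its shares are not comparable with those of MPB and TCS. Exposure window and age differ together in these fits.

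In MPB animals 5 of the 45 rose and 3 fell, against 3.53% and 4.18% of all genes. Lgr6 rose by 1.06 ± 0.22 (adjusted p = 0.00596) and Wnt4 by 0.82 ± 0.22 (adjusted p = 0.0277), the latter being 0.59 (adjusted p = 0.118) without MPB PND21-41 replicate 2. Wnt5a fell, with -0.56 ± 0.099 (adjusted p = 0.00232), from 8.34 ± 0.17 (n = 10) to 7.78 ± 0.10 (n = 5). Its 10 younger arrays lay between 8.15 and 8.70 and the 5 older ones between 7.65 and 7.89, without overlap. Groups did not overlap for 1 of the 45 and for 287 of all 18166 genes. Fzd4 (-0.86 ± 0.18) and Fzd8 (-0.58 ± 0.12) were the others that fell, and Sfrp1 (0.57 ± 0.13), Sfrp2 and Fzd1 the others that rose. The calls of Sfrp2 (0.57 ± 0.17, adjusted p = 0.0474) and Fzd1 (0.33 ± 0.099, adjusted p = 0.048) were lost in 12 and 13 of the 15 fits that left out 1 array, to an adjusted p of at most 0.15 and 0.136, and without the batch term (0.11 and 0.47). Dkk2 (-0.83, adjusted p = 0.154) and Rspo3 (0.24 ± 0.29, adjusted p = 0.732) did not pass.

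In TCS animals 13 rose and 1 fell, against 8.87% and 4.71% of all genes. Rspo3 (1.51 ± 0.45, adjusted p = 0.0403) and Lgr6 (1.39 ± 0.14, adjusted p = 6.91e-05) led, followed by Wnt4 (1.06 ± 0.15) and Sfrp1 (1.04 ± 0.15). The call of Rspo3 was lost in 9 of the fits that left out 1 array. The calls for Fzd6 (0.46 ± 0.10), Lrp6 (0.45 ± 0.10) and Lgr4 (0.45 ± 0.12) had no counterpart in OIL in the same table, though the difference between animals was itself not called for any of them. Lrp6 was called in OIL in the DEP and OIL table, as given above. Dkk2 was the one that fell (-1.44 ± 0.30, adjusted p = 0.00658). Without the array TCS PND21-41 replicate 1 the count was 6, with Rspo3 at 1.40 (adjusted p = 0.166) and Dkk2 at -1.09 (adjusted p = 0.0537), and without TCS GD1-20 replicate 5, which is muscle-rich, it was 18. Shares of all genes called in these fits are not given here.

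Of the 25 genes in the DEP table, 10 rose and 4 fell, against 22% and 13.6% of its genes. Lgr6 again had a large rise (1.25 ± 0.19, adjusted p = 0.000132), with Sfrp2 (0.97), Sfrp1 (0.81) and Wnt4 (0.81). Dkk2 (-1.18 ± 0.34), Fzd4 (-0.72), Wnt5a (-0.55 ± 0.17) and Sfrp5 (-0.48 ± 0.12) fell. Batch 2 alone, with 2 arrays a group, called 0 members in the MPB and the DEP animals. Lgr6, Wnt4, Sfrp1 and Fzd1 passed as risen in each of the 3 fits, with the loss of the MPB call of Fzd1 given above, and no gene fell in each.

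**Figure D2:**
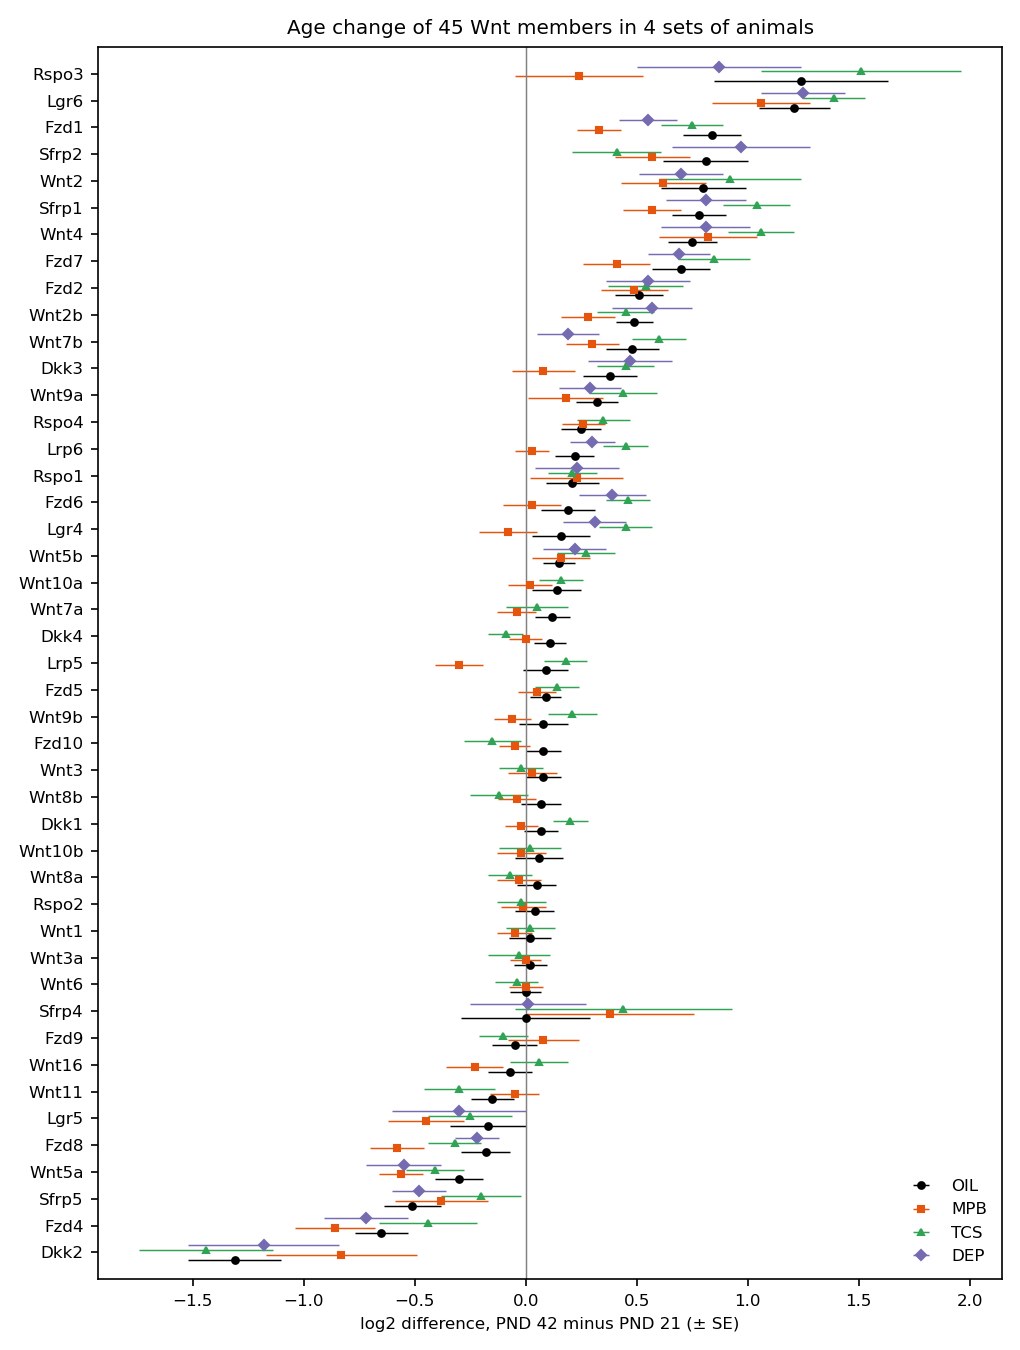
Difference in log2 signal between PND 42 and PND 21 for all 45 genes in OIL, MPB, TCS and DEP animals, with SE bars; genes without a DEP point are not in that table. Lgr6 lies above 1 in all 4 kinds of animal, and Dkk2 is negative in all 4.

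The test of the difference in the age change itself called 0 of the 45 for every chemical. For PND 42 against PND 21, calls over all genes were 0.0296% for DEP, 0% for MPB and 0% for TCS. At an unadjusted p under 0.05 there were 0 members for DEP (1.77% of genes), 3 for MPB (6.62%) and 0 for TCS (2.88%). The 3 in MPB were Fzd1, at -0.51 ± 0.16 (adjusted p = 0.691), Lrp5 (-0.38 ± 0.15) and Fzd8 (-0.39 ± 0.17).

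From PND 42 to PND 63 little passed. In OIL 0 of the 45 were called, against 0.782% of genes. At an unadjusted p under 0.05 there were 5, against 12.7% of genes. Rspo4 had the smallest p, with 6.59, 6.99, 6.86, 6.72 and 6.85 at PND 42 and 6.55, 6.53, 6.46, 6.54 and 6.47 at PND 63. These did not overlap (true of 318 of 18166 genes) but are below the olfactory receptor floor, and the difference was -0.29 ± 0.10 (adjusted p = 0.215). Fzd1 came next (-0.42 ± 0.15, adjusted p = 0.219), then Wnt2b (-0.23 ± 0.095, adjusted p = 0.294).

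In MPB animals 0 were called (0.308% of genes) and 9 had an unadjusted p under 0.05 (11.2%). Sfrp1 stood at 9.23, 9.17, 9.08, 9.16 and 9.13 at PND 42 and at 9.97, 9.45, 9.75, 10.00 and 9.81 at PND 63. The groups did not overlap (true of 329 of 18166 genes), and the difference of 0.64 ± 0.16 had an adjusted p of 0.0856. Rspo3 differed by 1.15 ± 0.34 (adjusted p = 0.178) and Lgr4 by 0.51 ± 0.16 (adjusted p = 0.211). In TCS animals 0 were called (0.0055% of genes) and 3 had an unadjusted p under 0.05 (4.33%): Wnt4 (-0.51 ± 0.18), Sfrp1 (0.42 ± 0.17) and Wnt7b (-0.30). In DEP animals 0 were called (0.0887%), and Wnt4 alone had an unadjusted p under 0.05 (10.5%), at -0.49 ± 0.23 (adjusted p = 0.468). The test against OIL called 0 for DEP (0% of genes), MPB (0%) and TCS (0%). Unadjusted, 0 (2.75%), 4 (6.92%) and 0 (1.21%) had a p under 0.05, and the 4 in MPB were Fzd1 (0.64 ± 0.19, adjusted p = 0.49), Lgr6 (0.91 ± 0.32, adjusted p = 0.6), Lgr5 (0.64) and Sfrp2 (0.64).

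Both early OIL groups, of one age and without chemical, give the spread that control groups can show. Between OIL GD1-20 and OIL PND1-20, 0 of the 45 were called (0% of genes) and 6 had an unadjusted p under 0.05 (8.54%). Wnt4 led with -0.40 ± 0.13 (adjusted p = 0.501), then Fzd8 (0.33 ± 0.12, adjusted p = 0.544) and Dkk1 (-0.23 ± 0.089, adjusted p = 0.553). Lgr6, named here after its value was seen, was also among the 6, at -0.46 ± 0.18 (adjusted p = 0.562). The same OIL animals are the controls of the early windows for DEP, MPB and TCS, so those comparisons are not independent of each other.

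No difference between a chemical and OIL passed the threshold for these genes. In the 12 short-window comparisons with OIL and in the chronic one, 0 of the 45 genes (25 for DEP) were called. Over all genes the calls were 0.0148% for DEP PND21-41 and 0.0055% each for MPB GD1-20, MPB PND42-62 and TCS GD1-20, 1 gene apiece, and 0% in the other 9 comparisons. The counts below are of genes with an unadjusted p under 0.05, each beside the share of all genes.

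DEP after gestational exposure had 1 such gene (6.97% of genes). Wnt4 stood at 7.62, 7.41, 8.64, 8.40 and 7.47 in DEP and at 7.38, 7.18, 7.46, 7.74 and 7.38 in OIL. Of the DEP arrays 2 were above every OIL array, and the difference was 0.48 ± 0.22 (adjusted p = 0.692). Lgr6 (0.27) and Rspo1 (0.25) came next. The 2 high Wnt4 arrays, replicates 3 and 4, had the highest luminal scores of their group (0.09 and 0.16). In this comparison 10 of 10 muscle (median 1.88) and 17 of 19 luminal markers (0.44) were positive and 10 of 10 B cell markers (-0.72) negative. Wnt4 differed by 0.19 with muscle and B cell scores, 0.31 with luminal and adipocyte scores and 0.3 without muscle-rich arrays. The part of these cells was not tested otherwise. After DEP PND1-20 there were 0 such genes (2.72%), the smallest p being those of Lgr6 (-0.29), Wnt5b (-0.14) and Sfrp2 (-0.30). The difference between both DEP effects was 0.66 ± 0.31 for Wnt4 (adjusted p = 0.638) and 0.56 ± 0.25 for Lgr6 (adjusted p = 0.635). These were the 2 genes under 0.05 before adjustment (7.68% of genes), and 0 of the 25 were called (0%). This contrast shares its OIL animals with that of TCS below.

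DEP PND21-41 had 0 such genes (2.26%), led by Fzd1 at -0.24 ± 0.16 (adjusted p = 0.999), Wnt5a (-0.15) and Wnt7b (-0.16). DEP PND42-62 had 3 (14.7%), all lower. Dkk3 stood at 9.03, 8.78, 9.39, 9.01 and 9.31 in DEP and at 9.62, 9.64, 9.48, 9.20 and 9.58 in OIL, with a difference of -0.40 ± 0.14 (adjusted p = 0.286). Lrp6 stood at 11.16, 11.00, 11.10, 10.91 and 11.19 in DEP and at 11.22, 11.40, 11.40, 11.27 and 11.25 in OIL. These groups did not overlap (true of 242 of 6762 genes), yet the difference of -0.24 ± 0.094 had an adjusted p of 0.313. Fzd7 differed by -0.30 ± 0.11 (adjusted p = 0.29). In the same comparison 10 of 10 muscle markers (median 1.49) and 10 of 10 B cell markers (0.92) were positive and 18 of 19 luminal (-0.33) and 11 of 11 adipocyte markers (-0.32) negative. With the scores of muscle and of B cells in the model the difference was 0.00 for Fzd7, -0.89 for Dkk3 (adjusted p = 0.293) and -0.36 for Lrp6 (adjusted p = 0.522).

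MPB in the early windows had 1 gene (4.02%) after GD1-20, Wnt5b at -0.24 ± 0.11 (adjusted p = 0.984), with Dkk3 (-0.23) and Fzd10 (0.18) next. It had 0 (1.67%) after PND1-20, led by Wnt5a (0.20), Fzd2 (-0.21) and Wnt1 (0.17). The difference between both MPB effects called 0 (0% of genes) with 0 unadjusted (2.67%).

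MPB PND21-41 had 6 (9.84%), all lower, and 9 of the 45 differences were positive with a median of -0.08. Lrp5 had the smallest p. It stood at 10.57, 10.94, 10.64, 10.30 and 9.90 in MPB and at 11.17, 10.86, 11.13, 10.76 and 10.39 in OIL, with a difference of -0.39 ± 0.12 (adjusted p = 0.508). The groups overlapped, and in each batch the MPB mean was the lower. Fzd1 (-0.50 ± 0.17) and Sfrp1 (-0.40 ± 0.15) followed. Fzd1 stood at 8.18, 8.34, 8.26, 7.80 and 7.58 in MPB. In the same glands 19 of 19 luminal markers were lower (median -0.44), and 10 of 10 B cell (1.35) and 11 of 11 cell cycle markers (1.02) higher. B cell scores ran from -1.59 to 1.38 in MPB and from -1.72 to 0.12 in OIL. With luminal and adipocyte scores in the model the differences were -0.17 for Lrp5, -0.20 for Fzd1 and -0.25 for Sfrp1. With muscle and B cell scores they were -0.26, -0.31 and -0.31. The part of these cells in the differences was not tested otherwise.

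MPB PND42-62 had 9 (17.8%), 3 higher and 6 lower. Lgr6 stood at 9.50, 8.64, 9.17, 8.60 and 7.90 in MPB and at 8.35, 8.54, 8.06, 7.64 and 7.61 in OIL. All but 1 MPB array lay above the OIL ones, and the difference was 0.72 ± 0.17, or 1.65-fold, from 8.04 ± 0.42 to 8.76 ± 0.61 (SD, n = 5 each), with an unadjusted p of 0.000858 and an adjusted p of 0.145. It was 0.79 in batch 1 and 0.63 in batch 2. Sfrp4, one of the secreted proteins that bind Wnts, stood at 8.26, 9.28, 8.95, 7.14 and 8.26 in MPB and at 9.64, 8.97, 9.63, 8.62 and 8.77 in OIL. It differed by -0.75 ± 0.23 (adjusted p = 0.157). Lrp6 stood at 11.07, 11.30, 10.91, 11.16 and 11.31 in MPB and at 11.25, 11.46, 11.43, 11.44 and 11.45 in OIL, a difference of -0.26 ± 0.081 (adjusted p = 0.163). Only the lowest OIL array lay inside the MPB range. Wnt4 (0.37 ± 0.17) and Lgr5 (0.38 ± 0.16) were the other higher ones. Luminal markers were positive in 10 of 19 (median 0.03) and B cell markers in 10 of 10 (0.48). The count of calls changed with 1 array, MPB PND42-62 replicate 2. That array had the highest B cell (0.76) and muscle score (-0.17) and the lowest luminal score (0.92) of its group. With all arrays kept and muscle and B cell scores in the model, the adjusted p was 0.125 for Lgr6, 0.125 for Sfrp4 and 0.186 for Lrp6. The part of these cells was not tested otherwise. Without that array 4 genes and 861 genes in all were called. The 4 were Lgr6 (0.84, adjusted p = 0.0262), Sfrp4 (-0.89, adjusted p = 0.0451), Lrp6 (-0.31, adjusted p = 0.0487) and Wnt4.

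**Figure D3:**
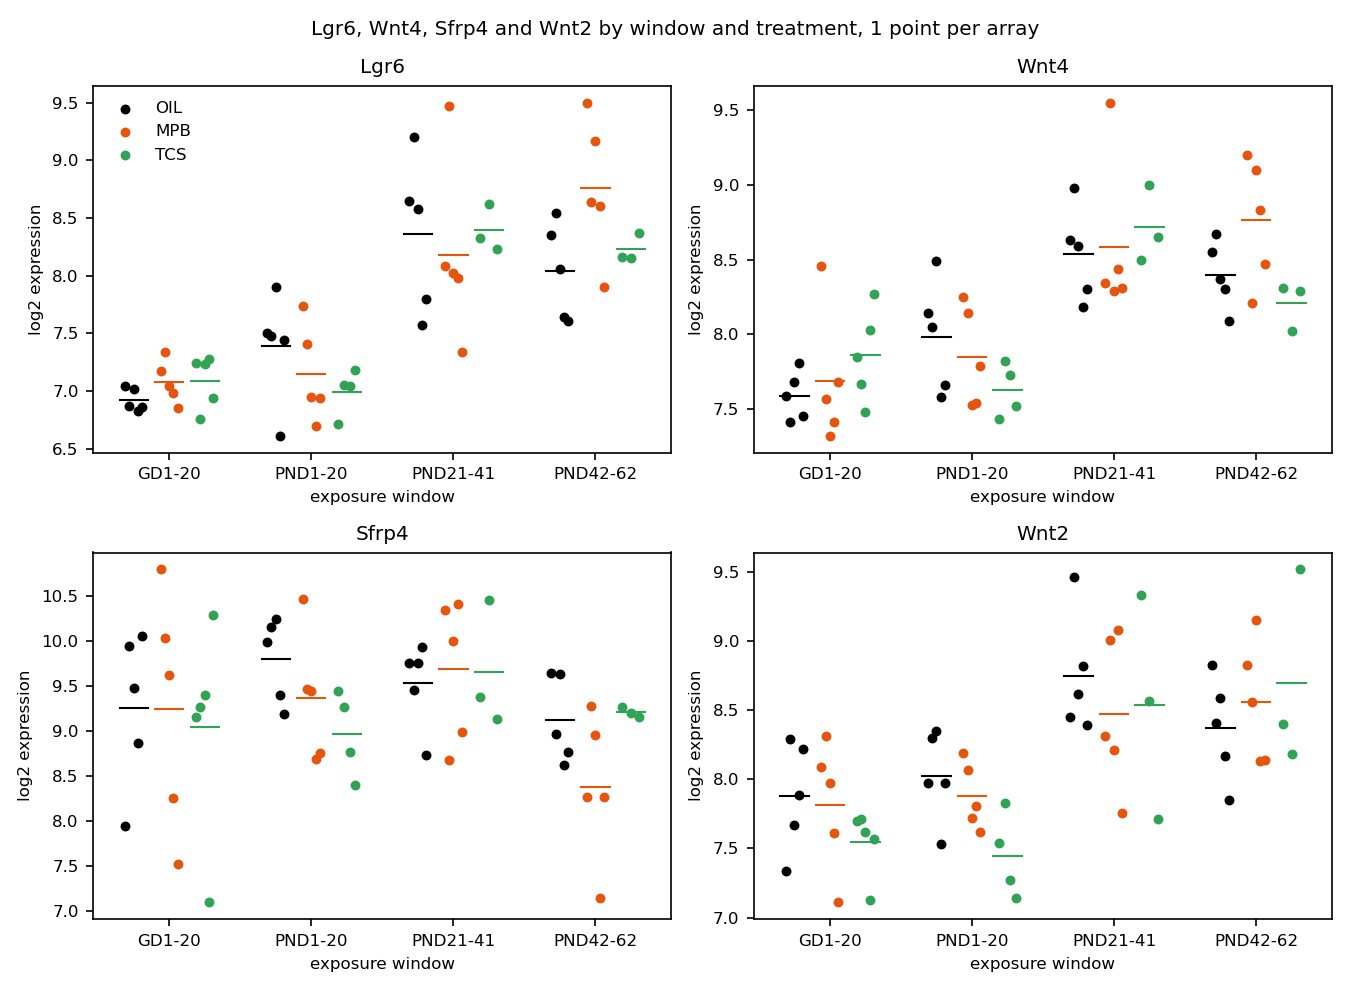
Log2 signal of Lgr6, Wnt4, Sfrp4 and Wnt2 in each OIL, MPB and TCS array of the 4 short windows; points are arrays and bars are group means. For Lgr6 after PND42-62, 4 of 5 MPB arrays lie above every OIL array, and for Wnt2 after PND1-20 the TCS mean of 7.45 is below the OIL mean of 8.02.

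TCS GD1-20 had 2 such genes (6.8%). Sfrp1 differed by -0.35 ± 0.15 (adjusted p = 0.725), then Fzd8 (-0.29) and Dkk3 (-0.24). TCS PND1-20 had 10 (6.25%), 1 higher and 9 lower, and 14 of the 45 differences were positive with a median of -0.12. Wnt2 stood at 7.54, 7.83, 7.27 and 7.14 in TCS and at 7.97, 8.30, 8.35, 7.53 and 7.97 in OIL. The difference of -0.63 ± 0.19 was -0.66 in batch 1 and -0.61 in batch 2, with an unadjusted p of 0.00345 and an adjusted p of 0.756. Fzd2 (-0.40 ± 0.13) and Rspo1 (-0.26 ± 0.095) came next, and were uneven between the batches: Fzd2 differed by -0.57 in batch 1 and -0.06 in batch 2, and Rspo1 by -0.09 and -0.58. Rspo1, which amplifies Wnt4 signalling in the mouse gland, stood at 7.83, 7.79, 7.77 and 7.70 in TCS and at 7.95, 7.84, 7.85, 8.27 and 8.29 in OIL. These did not overlap, though the nearest arrays were at 7.83 and 7.84. Groups did not overlap for 2 of the 45 and for 311 of all 18166 genes. In the same glands 0 of 19 luminal markers were higher (median -0.73), 12 of 12 fibroblast (-0.29) and 6 of 6 basal markers (-0.40) were lower and 10 of 10 B cell markers (0.89) higher. Luminal scores ran from -1.58 to -0.72 in TCS and from -1.11 to 0.55 in OIL. With luminal and adipocyte scores in the model the differences were -0.56 for Wnt2, -0.32 for Fzd2 and -0.33 for Rspo1. With muscle and B cell scores they were -0.50, -0.29 and -0.28. The part of these cells in the members' differences was not tested otherwise. The difference between the GD1-20 and PND1-20 effects of TCS called 0 (0% of genes), with 4 under 0.05 before adjustment (4.85%): Wnt6 (0.29, adjusted p = 0.947), Lgr6 (0.59 ± 0.25), Rspo1 (0.30) and Wnt4 (0.65 ± 0.29). Its OIL animals are those of the DEP contrast, so the results for Wnt4 and Lgr6 in DEP and TCS are not independent. OIL GD1-20 minus OIL PND1-20 was itself -0.40 for Wnt4 and -0.46 for Lgr6.

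TCS PND21-41 had 1 (2%), Sfrp2, with 10.80, 11.24 and 10.19 in TCS and a difference of -0.68 ± 0.29 (adjusted p = 1). Here all 3 TCS arrays were of batch 1, and 3 of the 5 OIL arrays. Wnt2b (-0.29) had means of 7.66 in TCS and 7.64 in OIL, and its difference was 0.02 without the batch term. TCS PND42-62 had 0 (3.01%), led by Wnt11 (0.28 ± 0.13), Fzd5 (-0.19) and Fzd4 (-0.21).

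**Figure D4:**
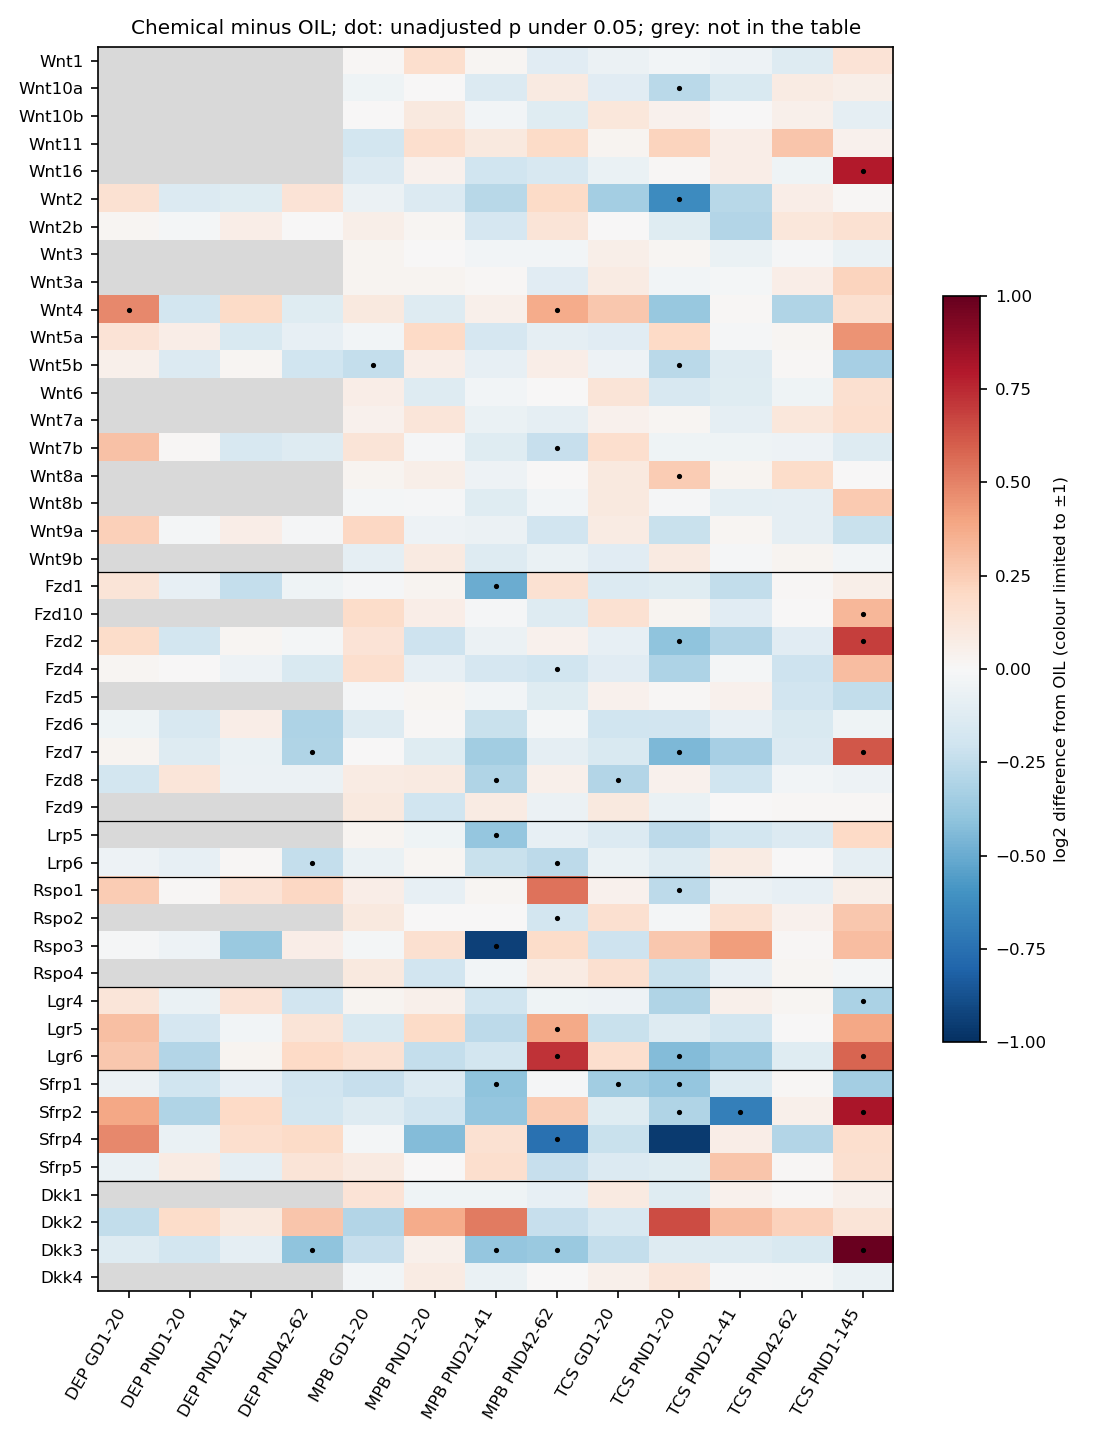
Difference in log2 signal between each chemical group and its OIL group for the 45 genes in 13 comparisons; colour gives the difference, a dot marks an unadjusted p under 0.05 and grey marks a gene not in the DEP table. No cell passed after adjustment, and the columns with the most dots are TCS PND1-20 (10) and MPB PND42-62 (9).

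MPB and TCS were compared in the same 4 windows, at doses not given here. In every window 0 of the 45 were called, against 0% of all genes in each. Under 0.05 before adjustment were 1 after GD1-20 (4.26% of genes), 4 after PND1-20 (3.11%), 1 after PND21-41 (3.36%) and 4 after PND42-62 (10.8%). After GD1-20 Fzd8 was higher in MPB by 0.37 ± 0.13 (adjusted p = 0.875), and after PND1-20 Wnt5b by 0.34 ± 0.12 and Wnt2 by 0.48 ± 0.19 (adjusted p = 1 for Wnt5b). After PND21-41 Rspo3 stood at 7.44, 6.72, 8.42, 7.18 and 8.10 in MPB and at 9.06, 8.35 and 9.10 in TCS, a difference of -1.35 ± 0.49 (adjusted p = 0.999). After PND42-62 Lgr6 stood at 8.16, 8.15 and 8.37 in TCS, below 4 of the 5 MPB arrays given above, a difference of 0.84 ± 0.20 (unadjusted p = 0.00126, adjusted p = 0.45). Wnt4 stood at 9.20, 8.21, 9.10, 8.83 and 8.47 in MPB and at 8.31, 8.02 and 8.29 in TCS, with a difference of 0.66 ± 0.20 (adjusted p = 0.45). It was 0.90 (adjusted p = 0.0457) without MPB PND42-62 replicate 2 and -0.07 with the scores of muscle and of B cells in the model.

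After chronic exposure through lactation, 3 TCS and 3 OIL glands, normalized by themselves, differed in 0 called genes (0%). Of the 45, 8 had an unadjusted p under 0.05 (12.9% of genes), 7 higher and 1 lower in TCS. The median over the 45 was 0.13, with 31 positive, against 0.01 over all genes. Groups did not overlap for 9 of the 45 and for 18.6% of all genes. Fzd2 stood at 7.52, 7.51 and 7.65 in TCS and at 6.88, 6.95 and 6.78 in OIL. Its difference of 0.69 ± 0.11, or 1.62-fold, had an unadjusted p of 0.000348 and an adjusted p of 0.297.

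Dkk3 stood at 8.19, 7.60 and 8.31 in TCS and at 6.57, 7.43 and 7.12 in OIL (0.99 ± 0.26, adjusted p = 0.297). Lgr6 stood at 5.98, 5.70 and 6.09 against 5.23, 5.58 and 5.22 (0.58 ± 0.16, adjusted p = 0.297). In all 3 genes each TCS array was above each OIL array. The olfactory receptor floor of this table was 5.58, and the OIL values of Lgr6 lay at or below it. Lgr4 was the one lower, with 9.87, 9.98 and 9.81 against 10.07, 10.27 and 10.29 (-0.32 ± 0.12, adjusted p = 0.334). The others were Wnt16 (0.79 ± 0.24), Sfrp2 (0.82 ± 0.27), Fzd7 (0.62 ± 0.21) and Fzd10 (0.33 ± 0.14), whose OIL mean of 5.32 lay below the floor. Among 14 TCF factors and targets, 10 differences were positive and 4 negative. Tcf7 (0.71 ± 0.17, adjusted p = 0.297), Axin2 (0.69 ± 0.21, adjusted p = 0.304) and Cd44 (-0.57 ± 0.20, adjusted p = 0.323) had the smallest p, and none was called. In these glands 12 of 12 fibroblast markers (median 0.57), 8 of 8 endothelial (0.52), 10 of 10 macrophage (0.56) and 9 of 11 adipocyte markers (0.76) were positive, and 10 of 10 muscle markers negative (-0.97). Luminal markers were negative in 12 of 19 (median -0.5). Muscle scores overlapped, from -1.33 to 0.84 in TCS and from -1.23 to 1.9 in OIL, the highest being that of OIL PND1-145 replicate 3. Fibroblast scores ran from -0.17 to 0.83 in TCS and from -0.48 to -0.09 in OIL, and their part in the differences was not tested.

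**Figure D5:**
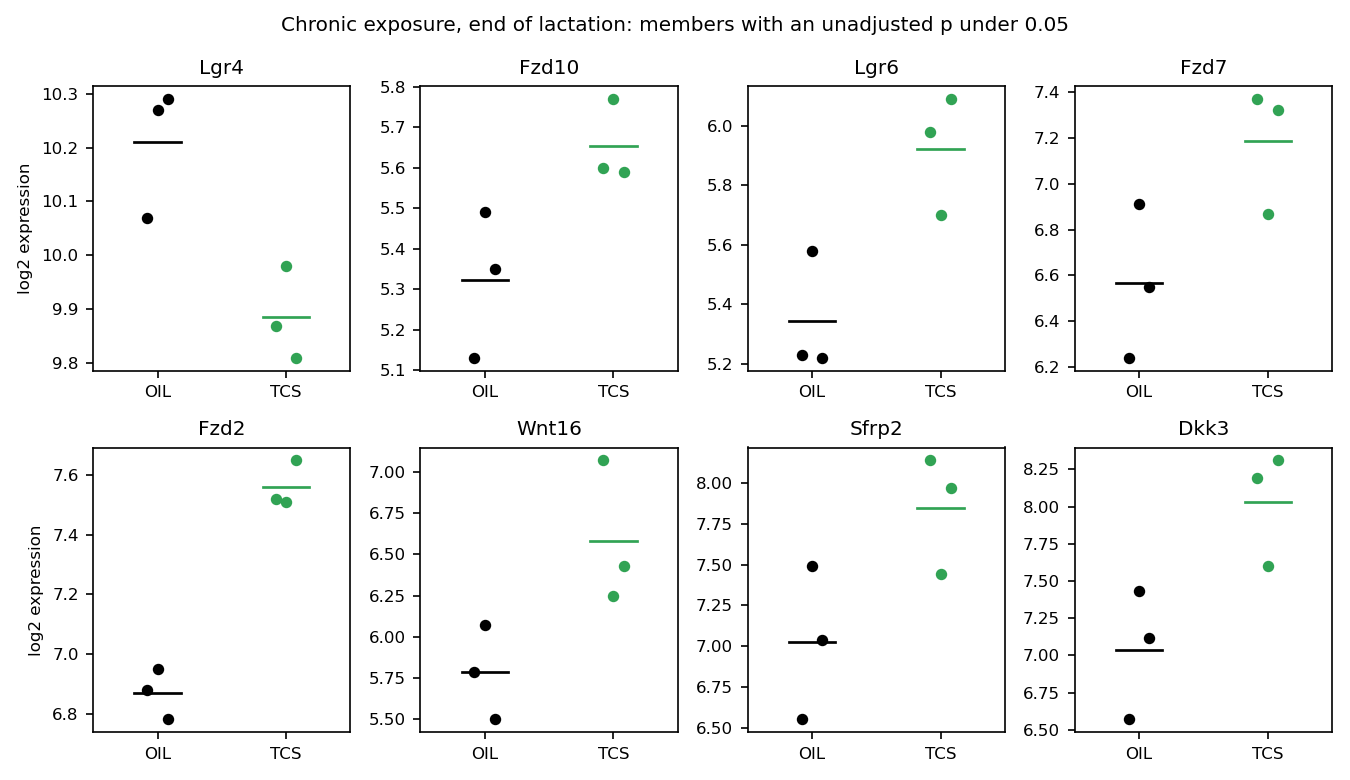
Log2 signal of the 8 genes with an unadjusted p under 0.05 in the 3 TCS and 3 OIL arrays of the chronic window; points are arrays and bars are means. Lgr4 is lower in TCS and the other 7 are higher.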

How the data were processed

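Total RNA of 81 whole mammary glands was read on Affymetrix whole-transcript arrays. The deposited values are log2 signals that the authors made with RMA in Affymetrix Expression Console, per the submitters' processing notes; the genome build is not given in the sources used here. Tables were normalized separately, and tests were run within a table: MPB, TCS and OIL (55 arrays, 36685 transcript clusters), DEP and OIL (40 arrays, 7780 clusters, a subset) and chronic (6 arrays). In the DEP table the SD over genes of the difference between batch means was 0.0224, against 0.37 in the other, and no label states a batch adjustment. Of the clusters 18511 had 1 gene symbol, 575 several and 17599 none listed here. A gene was read from its cluster with the highest mean, and all 45 members had a single cluster.

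Groups came from the labels. limma 3.58.1 (R 4.3.3) fitted group and batch, 2-sided, with Benjamini-Hochberg adjustment over all genes and no filter on low values. Chemical comparisons used all groups of one age in a table, and age comparisons each chemical's own arrays. The fit was checked on simulated data. The number of arrays limits the precision. A marker score is the mean over a list of the log2 value minus the gene's mean over the table. Named are up to 10 called members that rose and 10 that fell most, or, with under 3 called, also the 3 with the smallest p, and of other lists the 3 with the smallest p. Members and lists were chosen with earlier results of these data known. Alternatives left out the batch term, single arrays or muscle-rich arrays, took 1 batch, a filter, cluster means, median centring, robust eBayes, marker covariates or another deposited table.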

Additional observations from a re-analysis of the deposited data

Results flagged for a closer look

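In 120 combinations of a group of 4 or 5 arrays and a named gene, the highest or lowest array was set against the others of its group, and 6 stood further out than Dixon's 95% critical value. Chance alone flags about 1 in 20. Rspo3 in OIL PND1-20 replicate 3 was 6.57, with the others between 7.26 and 7.36. Sfrp2 in OIL PND21-41 replicate 2 was 12.17, with the others between 10.84 and 11.16. Wnt7b in OIL PND21-41 replicate 4 of the DEP and OIL table was 6.5, with the others between 6.81 and 6.91. Dkk3 in MPB GD1-20 replicate 2 was 9.21, with the others between 8.67 and 8.78. Lrp6 in OIL PND42-62 replicate 1 was 11.25 against 11.43 to 11.46, and Lrp6 in MPB PND21-41 replicate 3 was 10.85 against 10.99 to 11.03.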

How the results depend on the processing

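No paired analysis was possible because the labels number each animal once and give no litter or pair. For PND 42 against PND 21 in OIL, where 16 genes were called, the count was 13 without the batch term, 14 in batch 1 alone (13 of them among the 16), 7 in batch 2 alone, 9 with scores of muscle and of B cells in the model (8 among the 16) and 0 with luminal and adipocyte scores. All genes called went from 4073 to 2546, 3009, 1268, 1713 and 58 in that order, and to 2370 without muscle-rich arrays. The count of members stayed within 1.5 times under the other settings. For MPB the 8 calls became 5 without the batch term, 4 and 0 in either batch by itself (1, then 2), 14 with muscle and B cell scores added, 0 with luminal and adipocyte scores, and 5 to 9 when single arrays were left out, 5 without MPB PND1-20 replicate 4 or MPB PND21-41 replicate 2. For TCS the 14 became 6 with muscle and B cell scores added, 0 with luminal and adipocyte scores, and 6 to 18 when single arrays were left out (9 without TCS PND1-20 replicate 1). For DEP the 14 became 8 and 0 in either batch by itself (1, then 2), 5 with muscle and B cell scores added and 1 (Lgr5) with luminal and adipocyte scores. For PND 63 against PND 42 the 0 of OIL became 1 (Fzd1) with muscle and B cell scores added, without muscle-rich arrays and without OIL PND21-41 replicate 1, a range of 0 to 1, and the 0 of MPB became 1 (Lgr4) with muscle and B cell scores added. MPB PND42-62 against OIL ranged from 0 to 4 when single arrays were left out, and MPB against TCS from 0 to 1 after PND42-62. MPB against TCS after GD1-20 gave 5 in batch 1 alone (Fzd2, Fzd4, Fzd8, Sfrp5 and Wnt11, among 2761 genes). For the age comparisons of MPB, TCS and DEP, counts of all genes under these settings are not given here. Those counts of members are thus not set against the change over all genes. The causes were not tested. Of the differences of named genes, 18 turned sign. With luminal and adipocyte scores the change from PND 21 to PND 42 became 0.19 for Fzd4 and -0.16 for Dkk3 in OIL, 0.19 for Fzd4 in MPB, -0.03 for Dkk3 in TCS, and -0.07 for Sfrp1, -0.03 for Wnt4, -0.19 for Wnt2b and -0.1 for Fzd2 in DEP. With muscle and B cell scores added Fzd6 became 0.07 in DEP from PND 42 to PND 63, Fzd7 0 in DEP PND42-62, Fzd5 0.03 in TCS PND42-62, and Wnt4 -0.07 and Lrp6 0.03 in MPB against TCS after PND42-62. Batch 2 alone gave 0.06 for Lgr6 in DEP PND1-20, 0.08 for Wnt7b in DEP PND21-41, -0.11 for Wnt1 in MPB PND1-20 and -0.19 for Fzd2 in MPB against TCS after GD1-20. Without the batch term Wnt2b was 0.02 in TCS PND21-41. The filter on low values was not run for DEP, whose table holds too few olfactory receptor genes, and batch 2 alone was not run where a group had too few arrays in it.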
